A study of Mus musculus with 4 samples.

Results

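The acrosome is the enzyme-filled cap of the sperm head, built from Golgi vesicles in round spermatids and opened at the egg. The 38 genes described here make its contents, its membranes, the traffic and chaperones that build it, and the proteins of sperm-egg binding and fusion. They were chosen by name from what is known of these roles, though with earlier results of these data known. All 38 were found among the 17934 genes of the tables. They were measured in testis RNA from male C57BL/6 mice on a western diet lasting 18 weeks, in 2 libraries from Tas1r3 KO (Tas1r3-/-) mice and 2 from wild-type (WT, Tas1r3+/+) mice. Their age and relatedness are not stated in the labels. Both genotypes had that diet, so no library shows either genotype without it. Tas1r3 encodes a subunit of the sweet and umami taste receptors. The question put to these genes is whether their RNA levels differ in testis that lacks it.

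Acrosome building starts when proacrosomal vesicles bud from the Golgi, travel to the nuclear envelope and fuse there into a cap that is anchored to the nucleus. Proteases, hyaluronidases and their binding partners are stored in the cap, while chaperones of the endoplasmic reticulum fold the surface proteins that the sperm later uses to bind the zona pellucida. After the acrosome reaction, proteins uncovered on the sperm head, IZUMO1 among them, let sperm and egg membranes fuse. Most of these genes are transcribed in spermatocytes and spermatids, so their level in whole testis follows both the number of these cells and the RNA per cell, which cannot be told apart in bulk RNA.

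The deposited values are CPM (reads of a transcript scaled so that each library sums to 1000000), and the depth, read from the smallest steps of the values, came to 748637 and 597936 estimated reads in KO replicates 1 and 2 and 1719351 and 1807687 in WT replicates 1 and 2. The WT libraries were therefore 2.62 times as deep as the KO libraries on average. Tas1r3 itself had 1.34 and 0 CPM in the KO libraries and 13.8 and 20.5 CPM in the WT libraries, in the direction of the labels. Its log2 fold change of -3.54 was not called (limma, BH-adjusted p = 0.627). All 8 round spermatid and all 8 elongating spermatid markers had reads in every library. Across the 17654 genes tested (limma on log2(CPM + 1), P-values adjusted by Benjamini-Hochberg, BH), the threshold of 0.05 on the adjusted p was passed by 1 gene, which is neither Tas1r3 nor among the 38. Nothing in the labels ties each library to an animal of its own, so the P-values rest on library-to-library spread alone, and that spread may be technical.

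None of the 38 genes passed the test between KO and WT testis. The count was 0 of 38 (limma, BH-adjusted p from 0.95 to 0.999), where 0.00566% of all genes tested were called. At an unadjusted p under 0.05 there were 3 of the 38, or 7.89%, against 4.33% of all genes tested. Spaca1 was the 1 with a higher KO value, beside 1.33% of all genes tested, and Spaca4 and Spaca9 were the 2 with lower KO values, beside 3.01%. The mean log2 value was higher in KO for 17 of the genes and lower for 21, and their median log2 fold change, KO minus WT, was -0.01, beside -0.04 over all genes tested. The fold changes of the 38 ran from -0.48 for Spaca4 to 0.43 for Spaca1. Spaca4 had -0.54 after thinning to the depth of the shallowest library, and -0.52 without KO replicate 2 and -0.56 without WT replicate 1, and Gopc had -0.61 without KO replicate 2. The genotypes did not overlap for 11 of the 38, or 28.9%, beside 34.3% of all genes tested. Both KO libraries lay above both WT libraries for 3 of the 38 (7.89%, beside 15.1% of all genes tested), and both lay below for 8 (21.1%, beside 19.2%).

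The 38 genes together took nearly the same part of every library. Their values summed to 10899 and 11588 CPM in KO replicates 1 and 2, against 11057 and 11023 CPM in the WT libraries, or 1.09% and 1.159% of the KO libraries and 1.106% and 1.102% of the WT libraries. The 95% intervals of the fold changes had half-widths from 0.284 to 0.808 on the log2 scale, with a median of 0.38. These intervals are not adjusted for the number of genes tested. Differences smaller than these widths could not be told from 0 at this depth and with 2 libraries a genotype, even without adjustment. A call over all genes tested needed larger ones. Spaca1 at 0.43, Spaca4 at -0.48 and Spaca9 at -0.32 had intervals that left out 0 and were still not called. Every member had at least 8 estimated reads in every library, and the median over the members was 92.1 and 82.6 reads in the KO libraries and 204 and 227 reads in the WT libraries.

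**Figure D1:**
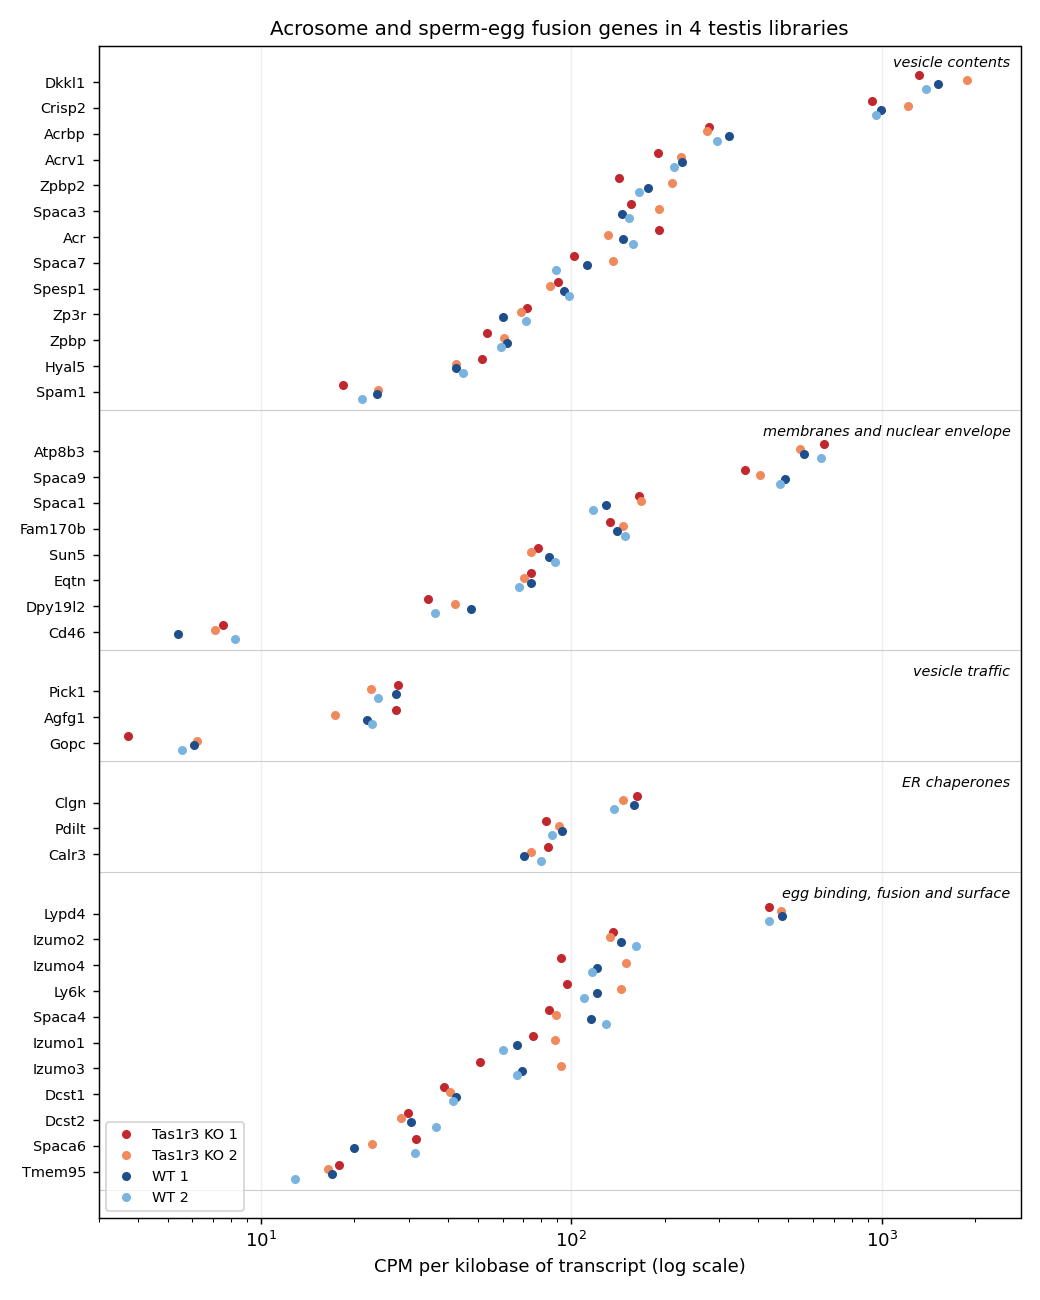
Level of each of the 38 genes in CPM per kilobase of transcript (log axis), by role, with 1 point per library. The KO and WT points overlap in most rows, and in CPM they do so for 27 genes, and the genes span from 5.40 CPM per kilobase for Gopc to 1525 CPM per kilobase for Dkkl1.

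Levels between genes are compared per length, as CPM per kilobase of transcript. On that scale Dkkl1, an acrosomal glycoprotein gene, stood highest, with 1321 and 1880.0 CPM per kilobase in KO replicates 1 and 2 and 1514 and 1387 in the WT libraries. Crisp2, a cysteine-rich secretory protein gene of the acrosome and tail, came next with means of 1071 CPM per kilobase in KO and 978 in WT. Atp8b3, a phospholipid flippase gene of the acrosomal region, followed with a mean of 599 CPM per kilobase in both genotypes. Gopc and Cd46 stood lowest, with means of 4.97 and 7.33 CPM per kilobase in KO and 5.83 and 6.83 in WT. The median gene of the 38 had 90.4 CPM per kilobase, against 5.23 for the median gene tested, and 26 of the 38 were above the 90th percentile of all genes tested. The order of the genes was nearly the same in both genotypes (Spearman's rho 0.988 over the 38 genes, a description, since the genes share the same libraries). Of the 37 pairs of neighbours in that order, 28 overlapped in their 4 libraries, so most neighbouring ranks were not separated.

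**Figure D2:**
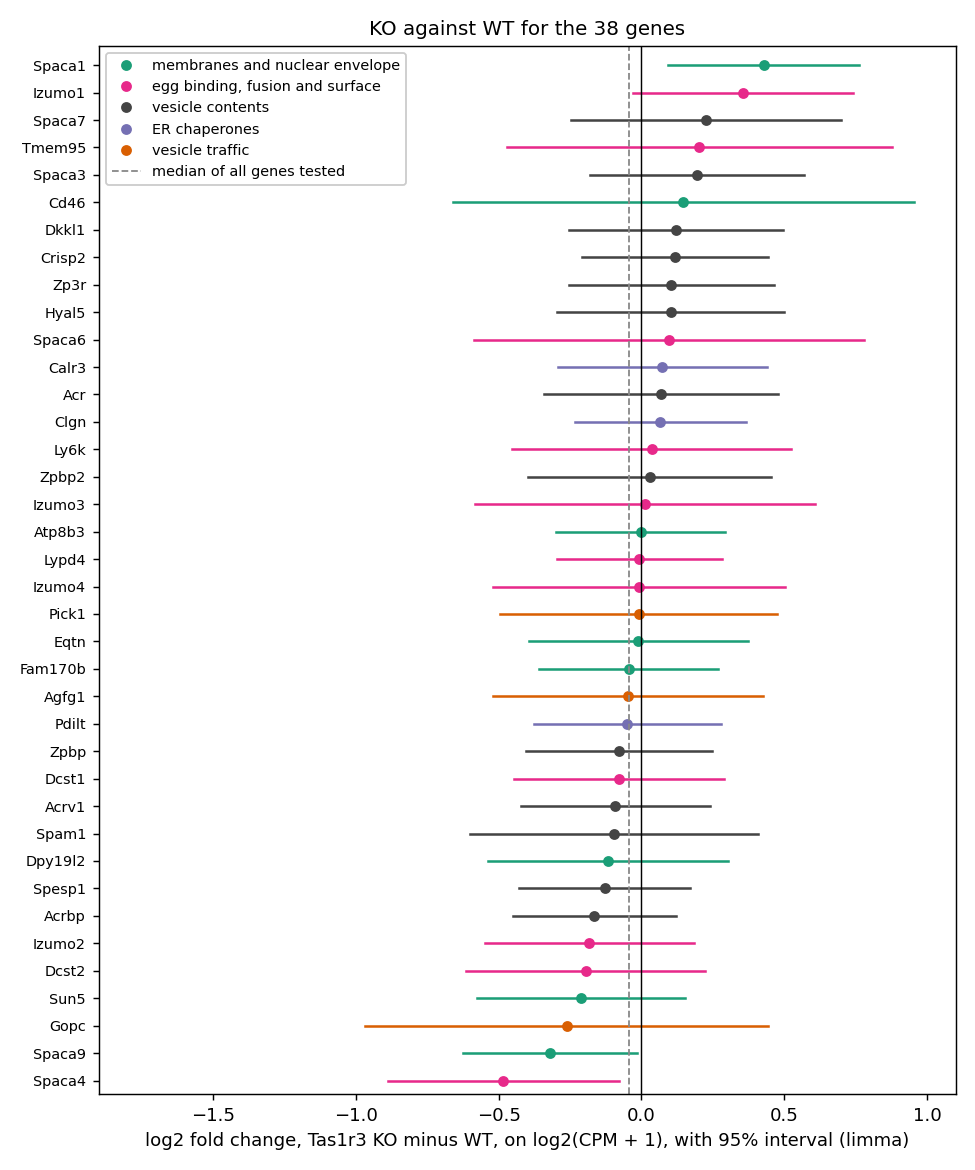
Log2 fold change of each gene, KO minus WT, on log2(CPM + 1), with its 95% interval from limma, coloured by role, and the median of all genes tested as a dashed line. The intervals of 3 genes (Spaca1, Spaca4 and Spaca9) leave out 0, and none of the 38 passed after adjustment over all genes.

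Spaca1, Spaca4, Spaca9 and Izumo1 had the smallest unadjusted P-values of the 38, and their promoters are shown for that reason, with that of Dcst2, whose promoter window overlaps that of its neighbour Dcst1. Each is the 300-base window of RefSeq from 250 bases before to 50 bases after the gene's start, on build GRCm38.p6, 5′ to 3′ on the gene's strand. The deposited files use mm39, so these coordinates are not those of the files. Capitals mark matches to the 4 motifs searched on both strands: the cAMP response element TGACGTCA, its shorter form TGACG (which lies within it), the RFX-type motif GTTGCC and the SOX site ACAATNG.
Spaca1 (chr4:34050018-34050317, minus strand): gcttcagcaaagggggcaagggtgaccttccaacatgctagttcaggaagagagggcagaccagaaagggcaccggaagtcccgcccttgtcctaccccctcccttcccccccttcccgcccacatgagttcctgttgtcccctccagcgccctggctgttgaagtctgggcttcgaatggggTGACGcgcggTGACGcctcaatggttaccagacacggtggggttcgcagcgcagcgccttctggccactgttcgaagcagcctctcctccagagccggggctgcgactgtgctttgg
Spaca9 (chr2:28699602-28699901, minus strand): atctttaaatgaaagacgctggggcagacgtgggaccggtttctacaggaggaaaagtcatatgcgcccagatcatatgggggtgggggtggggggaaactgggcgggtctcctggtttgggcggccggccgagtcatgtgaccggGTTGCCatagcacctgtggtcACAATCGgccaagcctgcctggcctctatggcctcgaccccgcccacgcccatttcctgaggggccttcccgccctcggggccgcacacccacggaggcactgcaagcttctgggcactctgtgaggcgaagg
Spaca4 (chr7:45725767-45726066, minus strand): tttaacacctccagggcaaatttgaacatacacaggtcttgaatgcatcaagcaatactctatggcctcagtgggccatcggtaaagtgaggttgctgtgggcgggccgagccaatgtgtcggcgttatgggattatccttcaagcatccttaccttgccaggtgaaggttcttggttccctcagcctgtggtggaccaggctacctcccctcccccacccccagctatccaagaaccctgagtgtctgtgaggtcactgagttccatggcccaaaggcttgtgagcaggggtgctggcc
Izumo1 (chr7:45621561-45621860, plus strand): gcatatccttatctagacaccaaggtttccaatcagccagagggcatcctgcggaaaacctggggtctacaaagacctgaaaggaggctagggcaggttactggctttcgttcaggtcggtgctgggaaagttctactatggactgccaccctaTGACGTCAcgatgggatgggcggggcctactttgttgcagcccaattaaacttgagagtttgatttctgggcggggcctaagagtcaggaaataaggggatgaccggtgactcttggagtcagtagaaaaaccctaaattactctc
Dcst2 (chr3:89365069-89365368, plus strand): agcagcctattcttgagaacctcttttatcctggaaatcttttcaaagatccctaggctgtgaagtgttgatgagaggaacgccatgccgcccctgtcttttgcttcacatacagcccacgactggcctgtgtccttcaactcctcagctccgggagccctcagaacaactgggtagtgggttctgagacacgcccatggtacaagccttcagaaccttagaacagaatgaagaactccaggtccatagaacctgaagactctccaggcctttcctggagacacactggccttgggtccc

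The Izumo1 window held 1 full cAMP response element and was the only one of 37 windows of 33 members to do so, where 1.79% of all 32851 promoter windows held one. The shorter form TGACG was in 14 of the 37 windows, or 37.8%, against 20.8% of all windows. It occurred at 2 positions in the Spaca1 window. The RFX-type motif GTTGCC was in 11 windows, or 29.7%, against 12.5% of all, and the SOX site ACAATNG in 6, or 16.2%, against 8.09% of all. The Spaca9 window held a match to each of the last 2 motifs, and the Spaca4 and Dcst2 windows held no match to any of the 4. These matches describe letters only, and some members have more than 1 window. Acr, Eqtn, Ly6k, Izumo4 and Clgn had no entry in the promoter table.

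Among the genes of acrosomal membranes and of the nuclear envelope, Spaca1 and Spaca9 had values that did not overlap between genotypes, in opposite directions. Spaca1 encodes an inner acrosomal membrane protein without which mouse sperm have round heads, and was placed by the files on chromosome 4 (mm39, 34024872 to 34050068, minus strand). It had 179 and 182 CPM in KO replicates 1 and 2, against 140.3 and 128 CPM in WT replicates 1 and 2, from 134 and 109 estimated reads in KO and 241 and 231 in WT. Both KO libraries were above both WT libraries, with a mean of 180.6 ± 2.34 CPM in KO and 134 ± 8.87 CPM in WT (SD, n = 2 each), a ratio of 1.35. The log2 fold change was 0.43 (SE 0.15, 95% interval 0.09 to 0.76), which did not pass over all genes (limma, BH-adjusted p = 0.95). It lay between 0.36 and 0.50 with each library left out in turn and was 0.45 after removal of the length trend described later.

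Spaca9 encodes a small protein of the acrosome and of microtubules, and was placed on chromosome 2 (28582092 to 28589664, minus strand). It had 243 and 271 CPM in the KO libraries, against 326 and 316 CPM in the WT libraries. The genotypes did not overlap, and KO averaged 257 ± 19.7 CPM and WT 321 ± 7.5 CPM (SD, n = 2 each), a ratio of 0.801. Its log2 fold change was -0.32 (SE 0.13, 95% interval -0.63 to -0.02) and did not pass (limma, BH-adjusted p = 0.95). Sun5, of the nuclear envelope where the tail joins the sperm head, had 91.6 and 90.3 CPM in KO and 103.5 and 107 CPM in WT (chromosome 2, 153698108 to 153713005). Its KO values were also both below its WT values, with a log2 fold change of -0.21 (SE 0.16).

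Atp8b3 had the highest CPM of all 38 genes, with 2877 and 2411 CPM in KO replicates 1 and 2 and 2472 and 2813 CPM in the WT libraries (chromosome 10, 80355419 to 80374959). The genotypes overlapped fully, and the log2 fold change was -0.002 with a 95% interval from -0.30 to 0.29. Dpy19l2, an inner nuclear membrane gene that anchors the acrosome to the nucleus, had 119 and 145.5 CPM in KO and 163 and 125 CPM in WT. Its span shares 645 bases with Cypt4 on the opposite strand, and the sources do not state whether strand was used in counting. Eqtn, for equatorin of the acrosomal membrane, had 92.2 and 85.3 CPM in KO and 93.6 and 85.2 CPM in WT. Fam170b, another acrosomal protein gene, had 226 and 249 CPM in KO and 237 and 251.5 CPM in WT. Cd46, a complement regulator gene that mouse sperm carry on the inner acrosomal membrane, had 14.7 and 13.4 CPM in KO and 10.2 and 15.5 CPM in WT. None of these 5 genes separated the genotypes.

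Of the 13 genes of the acrosomal contents, 0 had an unadjusted p under 0.05 in limma, 8 had a higher mean log2 value in KO and 5 a lower one. The 3 with the smallest P-values were Acrbp, Spaca3 and Spaca7. Acrbp encodes the protein that binds and holds proacrosin in the vesicle (chromosome 6, 125026890 to 125040229). It had 393 and 386 CPM in KO and 455 and 419 CPM in WT, with both KO libraries below both WT libraries and a log2 fold change of -0.16 (SE 0.13). Acr, the gene of proacrosin itself, had 283 and 199 CPM in KO, against 217 and 235.5 CPM in WT, and so overlapped, with KO replicate 1 highest and KO replicate 2 lowest. Spaca3, a lysozyme-like gene of the acrosome (chromosome 11, 80749189 to 80758641), had 127 and 155.5 CPM in KO and 119 and 126 CPM in WT. Its KO libraries were both above its WT libraries, KO replicate 1 by under 1 CPM, and its log2 fold change was 0.19 (SE 0.17). Spaca7, whose protein leaves the acrosome during the acrosome reaction (chromosome 8, 12623036 to 12650740), had 78.8 and 105 CPM in KO and 87.3 and 69.15 CPM in WT, which overlap.

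Crisp2 had the highest CPM of the contents genes, with 1357 and 1776 CPM in KO replicates 1 and 2 and 1455 and 1407 CPM in the WT libraries (chromosome 17, 41075625 to 41105038). The KO libraries stood on either side of both WT libraries. Dkkl1 showed the same order, with 1193 and 1697 CPM in KO and 1367 and 1252 CPM in WT. Both genes passed only when KO replicate 1 was left out: Crisp2 then had a log2 fold change of 0.31 and Dkkl1 of 0.38 (limma, BH-adjusted p = 0.036 and 0.0112), in a fit that takes its spread from the WT pair alone and calls 954 genes. Without KO replicate 2 the values were -0.08 and -0.13, and 413 genes were called, none of them among the 38. Without WT replicate 1 or WT replicate 2, 0 genes were called over the whole table.

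The zona-binding and hyaluronidase genes of the contents also overlapped between genotypes. Zp3r, a zona receptor gene, had 147 and 140.4 CPM in KO and 123 and 145 CPM in WT. Zpbp and Zpbp2, zona pellucida binding protein genes, had 202 and 232 CPM and 208 and 308 CPM in the KO libraries, and 234 and 223 CPM and 256.5 and 240.1 CPM in the WT libraries. Spam1 and Hyal5, hyaluronidase genes 56.9 kb apart on chromosome 6, had 38.7 and 50.2 CPM and 107 and 88.1 CPM in the KO libraries, and 49.8 and 44.8 CPM and 87.8 and 92.9 CPM in the WT libraries. Acrv1, an acrosomal antigen gene long used as a spermatid marker, had 209.7 and 247.5 CPM in KO and 251 and 235 CPM in WT. Spesp1, of the equatorial segment, had 274 and 257 CPM in KO and 285 and 296 CPM in WT, both KO values being below both WT values with a log2 fold change of -0.13 (SE 0.13).

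For each of the 3 genes of vesicle traffic the KO libraries differed from each other by more than the genotypes did. Gopc, a Golgi protein gene needed for acrosome formation in mice (chromosome 10, 52213120 to 52258221), had 16.0 and 26.8 CPM in KO replicates 1 and 2 and 26.1 and 24.0 CPM in the WT libraries. KO replicate 1 stood below the other libraries, at 12 estimated reads. The log2 fold change was -0.26, with a 95% interval from -0.97 to 0.44. Agfg1, which is needed for proacrosomal vesicles to dock and fuse (chromosome 1, 82817181 to 82878723), had 213.5 and 136 CPM in KO and 173 and 179.5 CPM in WT. Pick1, a vesicle adaptor gene (chromosome 15, 79113373 to 79133667), had 56.1 and 45.2 CPM in KO and 54.7 and 47.0 CPM in WT. All 3 overlapped between genotypes (limma, BH-adjusted p from 0.951 to 0.998).

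The 3 chaperone genes of spermatids likewise showed no separation. Clgn encodes calmegin, a membrane chaperone that mouse sperm need to make the fertilin proteins (chromosome 8, 84116471 to 84155182), and had 648 and 584 CPM in KO and 633 and 544 CPM in WT. Calr3, the testis calreticulin gene (chromosome 8, 73178027 to 73197623), had 140.3 and 124 CPM in KO and 118 and 133 CPM in WT. Pdilt, a testis disulfide isomerase-like gene that works with it (chromosome 7, 119085810 to 119122706), had 177 and 196 CPM in KO and 200.1 and 185 CPM in WT. Their log2 fold changes were 0.07, 0.07 and -0.05, with intervals that reach no further than 0.44 above and 0.38 below 0 (limma, BH-adjusted p from 0.969 to 0.98).

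Among the 11 genes of egg binding, fusion and the sperm surface, Spaca4 and Izumo1 lay furthest from 0, in opposite directions, although they lie 97.9 kb apart on chromosome 7. Spaca4 encodes a lipid-anchored surface protein that mouse sperm use to bind the zona (45374531 to 45375241, minus strand). It had 60.1 and 63.55 CPM in KO, against 82.0 and 91.8 CPM in WT, from 45 and 38 estimated reads in KO and 141 and 166 in WT. The genotypes did not overlap, with a mean of 61.8 ± 2.43 CPM in KO and 86.9 ± 6.95 CPM in WT (SD, n = 2 each) and a ratio of 0.711. The log2 fold change of -0.48 (SE 0.18, 95% interval -0.89 to -0.08) was the most negative of the 38 and did not pass (limma, BH-adjusted p = 0.95). The whole of Spaca4 lies within the span of Fam83e on the other strand, which had 108 and 137 CPM in KO and 111 and 116 CPM in WT, and reads of the pair cannot be told apart if strand was not used.

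Izumo1, the sperm protein that binds JUNO on the egg (chromosome 7, 45271235 to 45276667, plus strand), had 112 and 132 CPM in KO, against 99.6 and 90.2 CPM in WT. Both KO libraries were above both WT libraries, with 122 ± 14.2 CPM in KO and 94.9 ± 6.67 CPM in WT (SD, n = 2 each), a ratio of 1.29. Its log2 fold change was 0.36 (SE 0.17, 95% interval -0.03 to 0.74; limma, BH-adjusted p = 0.95), and with a library left out it ranged from 0.24 to 0.48. Izumo2, an Izumo1 paralog, had 98.85 and 97.0 CPM in KO and 106 and 116 CPM in WT (chromosome 7, 44358154 to 44369273). Its KO values were both below its WT values, with a log2 fold change of -0.18 (SE 0.16).

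In the other Izumo genes the KO libraries stood on either side of both WT libraries. Izumo3, needed in mice for a normal acrosome, had 64.1 and 117 CPM in KO and 87.8 and 84.1 CPM in WT. Izumo4 had 86.8 and 140.5 CPM in KO and 113 and 109 CPM in WT. In both genes KO replicate 1 was the lowest library and KO replicate 2 the highest. Ly6k, a lipid-anchored surface protein gene, repeated that order, with 74.8 and 112 CPM in KO and 93.55 and 85.1 CPM in WT. Lypd4, a related surface protein gene and the highest of the role in CPM (chromosome 7, 24564045 to 24569117), had 474 and 517 CPM in KO and 523.5 and 473 CPM in WT, with a log2 fold change of -0.007 and a 95% interval from -0.30 to 0.28.

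Dcst1 and Dcst2, whose proteins are needed together for fusion, lie head to head on chromosome 3 with 65 bases between them, and their promoter windows share 165 bases. Dcst1 had 90.8 and 95.3 CPM in KO and 99.1 and 97.6 CPM in WT. Dcst2 had 70.9 and 67.3 CPM in KO and 72.25 and 86.85 CPM in WT. In both genes the KO values were below the WT values, by a log2 fold change of -0.08 (SE 0.16) for Dcst1 and -0.20 (SE 0.19) for Dcst2. Spaca6, a fusion factor gene, had 34.7 and 25.1 CPM in KO and 21.9 and 34.5 CPM in WT. Tmem95, another fusion factor gene, had 21.4 and 19.7 CPM in KO and 20.4 and 15.4 CPM in WT.

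The KO libraries differed from each other more than the WT libraries did. The KO libraries were also shallower, at 748637 and 597936 estimated reads against 1719351 and 1807687 in WT. The part of depth in this spread was not tested. The median absolute difference between the libraries of a genotype, over the 38 genes on the log2(CPM + 1) scale, was 0.22 in KO and 0.13 in WT, and for the 7364 tested genes averaging 20 CPM or more it was 0.28 in KO and 0.15 in WT. The difference between the KO libraries was larger than that between the genotypes for 25 of the 38 genes, and the difference between the WT libraries was so for 24. Over the 17654 genes tested these counts were 11908 for KO and 8853 for WT. Among the 38, the sign of the difference between the KO libraries leaned to 1 side mainly in short transcripts. Among the 8 members with transcripts under 1000 bases, 7 were higher in KO replicate 2 than in KO replicate 1, and their median difference from the WT mean was -0.21 in KO replicate 1 and 0.33 in KO replicate 2. Of the 23 members from 1000 to 3000 bases, 11 were higher in KO replicate 2, and of the 7 members over 3000 bases, 3 were.

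A trend with transcript length ran through the whole table. Over the genes with at least 20 CPM the median difference from the WT mean was -0.16 in KO replicate 1 and 0.16 in KO replicate 2 for the 768 genes under 1000 bases, and 0.10 and -0.09 for the 3304 genes over 3000 bases. The correlation of the difference between the KO libraries with log2 length was -0.34 over those genes (Pearson; Spearman's rho -0.35) and -0.32 over the 38 genes (Spearman's rho -0.33). Between the WT libraries it was 0.06 over those genes and 0.02 over the 38, and for the mean difference between genotypes it was 0.04 and -0.09. These are correlations across genes, which are not independent replicates. The summed elongating spermatid markers moved the same way, with 27378 and 38226 CPM in KO replicates 1 and 2 and 31636 and 31620 CPM in the WT libraries. The summed round spermatid markers, 3 of which are among the 38, had 1946 and 2485 CPM in KO and 2166 and 2024 CPM in WT. The summed spermatocyte markers lay closer together, with 5516.4 and 5692.5 CPM in KO and 5593.1 and 5326.4 CPM in WT. The part of length and of these markers in the spread of the KO libraries was not tested beyond a fit with the length trend removed, in which 0 of the 38 genes were called and 4 had an unadjusted p under 0.05, where 1 gene was called over all genes tested and 4.94% of them had such a p (limma, BH).

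**Figure D3:**
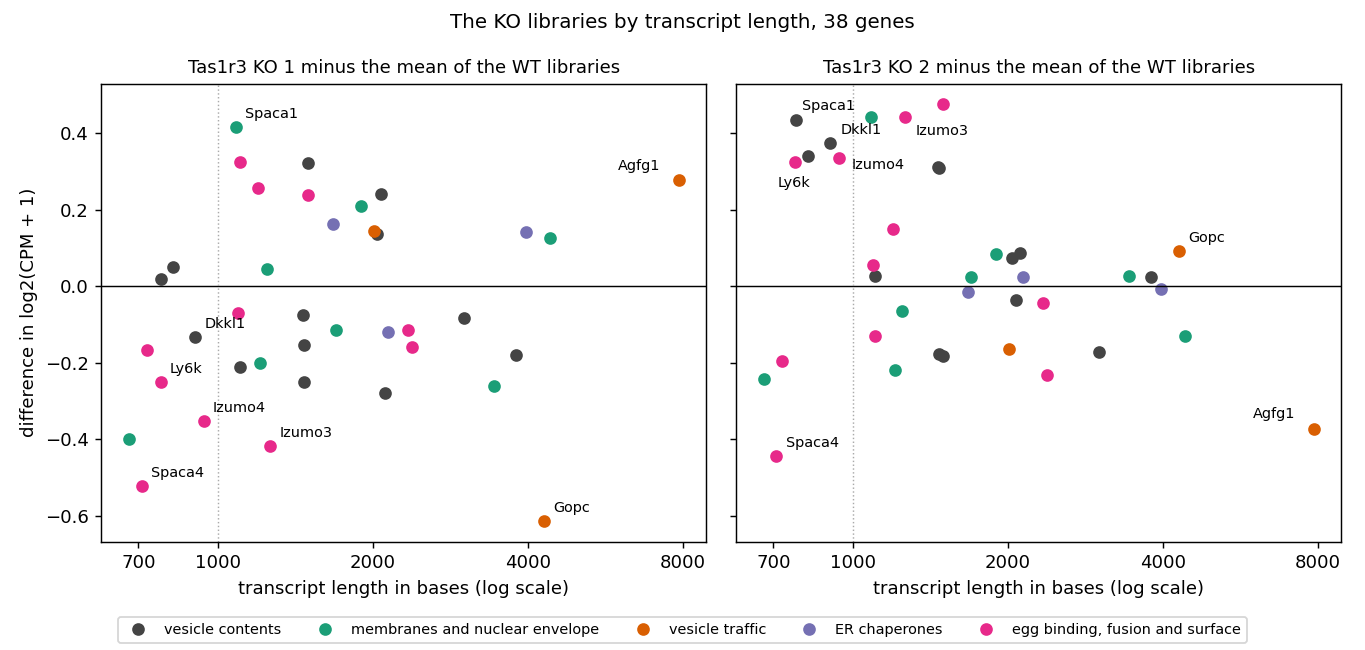
Difference of each KO library from the mean of the WT libraries in log2(CPM + 1), against transcript length in bases (log axis), 1 point per gene, coloured by role. Of the 8 genes under 1000 bases, Dkkl1, Izumo4 and Ly6k lie below 0 in KO replicate 1 and above 0 in KO replicate 2. Spaca3 and Spaca7 lie above 0 in both KO libraries, and Spaca9, Izumo2 and Spaca4 lie below 0 in both. Spaca1, which is longer, lies above 0 in both.

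Several genes with steady sums had unsteady transcripts. The tables give 63 transcripts for the 38 genes, and 17 genes have more than 1. Over the 42 transcripts of those genes the median absolute difference between libraries was 0.63 in KO and 0.26 in WT on the log2(CPM + 1) scale, against 0.29 and 0.12 for the sums of the same genes. Zpbp had 76.5 and 8.79 CPM in KO and 104 and 96.3 CPM in WT for its 3674-base transcript. Its 3845-base transcript had 125 and 223 CPM in KO and 131 and 126 CPM in WT, so KO replicate 2 stood apart in the division although not in the sum. Sun5 divided the other way, with 18.5 and 80.2 CPM in KO and 94.0 and 74.9 CPM in WT for its 1232-base transcript. The WT libraries also divided unevenly. The 1977-base transcript of Pick1 took 39.2% and 94.9% of its sum in WT, and 4.05% and 58.7% in KO. The largest difference in share between libraries of a genotype was 84.5 percentage points in KO and 55.7 in WT. The sources do not state how reads shared by transcripts of a gene were divided. The 2 Gopc transcripts took 43.21% and 56.79% in every library. Gopc had 12 and 16 estimated reads in KO and 44.9 and 43.4 in WT. Shares that equal from so few reads are not read here as a measured division.

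Clgn was singled out after its values were seen, since 2 of its 3 transcripts did not overlap between genotypes, in opposite directions, while its sum overlapped. Its 3968-base transcript had 231 and 242 CPM in KO, against 127 and 96.2 CPM in WT, a log2 fold change of 1.09 (SE 0.19). Its 3927-base transcript had 200.1 and 201 CPM in KO, against 314 and 323.5 CPM in WT, a log2 fold change of -0.66 (SE 0.12). Its 4050-base transcript had 217 and 140.2 CPM in KO and 192 and 125 CPM in WT. When every transcript was fitted on its own, 0 of 28243 were called (0%), and 0 of the 63 (limma, BH-adjusted p = 0.661 for both of the Clgn transcripts that differ, the lowest of the 63). At an unadjusted p under 0.05 there were 6 of the 63 transcripts, where 6.26% of all transcripts tested were. Minor transcripts of Spaca7 and Spaca3 were lower in both KO libraries than in both WT libraries, with 0.233 and 0.0750 CPM in KO and 6.325 and 8.91 CPM in WT for Spaca7, and 0 and 0 CPM in KO and 2.39 and 6.28 CPM in WT for Spaca3. Among all genes, 792 and 890.0 were listed at 0 in the shallower KO libraries, against 47 and 95 in the WT libraries. The parts of depth and of the division of shared reads in these transcript values, those of Clgn included, were not tested.

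**Figure D4:**
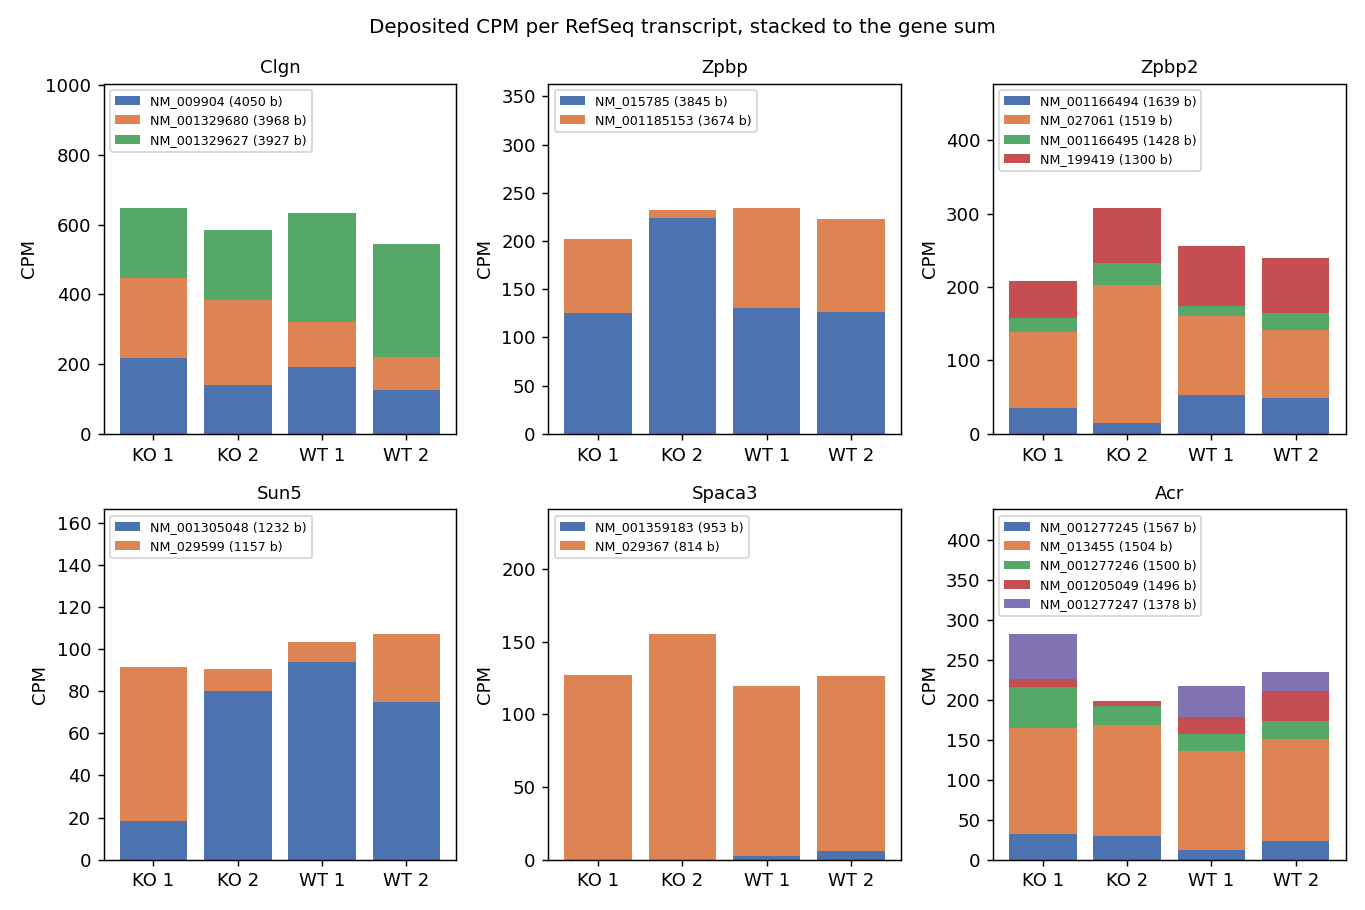
Deposited CPM of each RefSeq transcript of 6 genes, stacked to the gene's sum, in the 4 libraries, with transcript lengths in bases (b). The sums of Clgn run from 544 to 648 CPM while its 3968-base transcript is larger in both KO libraries, and for Zpbp and Sun5 a single KO library holds a different division.

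Other genes of acrosome and sperm-egg biology were read from a list of 61 measured genes that are not among the 38. Of these, 0 passed over all genes tested, in either direction (limma, BH-adjusted p from 0.95 to 0.999), and 1 (1.64%, beside 4.33% of all genes tested) had an unadjusted p under 0.05, Adam1a. The genotypes did not overlap for 32.8% of the 61, beside 34.3% of all genes tested. Both KO libraries lay above both WT libraries for 14 (23.0%, beside 15.1% of all genes tested). They lay below for 6 (9.84%, beside 19.2%). Of the 61 genes, 26 had a higher mean log2 value in KO and 35 a lower one, with a median log2 fold change of -0.03. Adam1a, for a fertilin subunit that calmegin helps to make, had 277 and 230.5 CPM in KO and 313 and 367 CPM in WT, so that the KO libraries were both lower (log2 fold change -0.42, SE 0.15). Nt5e, an ectonucleotidase gene, had 21.4 and 16.7 CPM in KO and 12.2 and 10.4 CPM in WT, with 10 to 21 estimated reads in a library (log2 fold change 0.70, SE 0.33). Prss37, a protease-like gene that mouse sperm need to mature surface proteins, had 203 and 259 CPM in KO and 193 and 169 CPM in WT (log2 fold change 0.34, SE 0.17). Both KO libraries were higher for Nt5e and for Prss37. Without KO replicate 1, 4 of the 61 genes were called, where 5.4% of all genes tested were, and without KO replicate 2, 1 was, where 2.34% of all genes tested were (limma, BH).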

How the data were processed

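RNA was measured in 2 KO and 2 WT testis libraries made with the Ion Total RNA-Seq Kit, per the labels' protocols. The submitters' processing notes name STAR, Partek and the build mm39, and versions and roles are not given in the sources used here. The authors normalized the reads of each of 29342 RefSeq transcripts per library and deposited them as CPM, a unit read from the columns, which each sum to 1000000. Estimated reads are CPM divided by the value of 1 read, found from the commonest low values. Only 21.0% to 49.1% of genes per library then had a whole number of reads (tolerance 0.01), so no count model was fitted.

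Transcript values were added up by gene symbol, and 10 symbols that occur on more than 1 chromosome were split by chromosome. The 17654 genes averaging 1 CPM or more entered a two-sided test of KO minus WT on log2(CPM + 1). The test was limma 3.58.1 (R 4.3.3) with its variance trend, and BH adjustment covered all of these genes. On this scale the change of low genes is understated. The procedure was tested on simulated data with changes larger than those of the members. That test does not show whether differences of the members' size would be called. Samples were grouped by their titles. The members, roles, lists and tests were chosen with earlier results of these data known. Named genes were, in each role, the 3 with the smallest unadjusted p and the 1 with the highest CPM, and 3 of the other acrosome genes by p. Other members and the transcripts were given after their values were seen. Alternatives were pseudocounts, filters, scalings, a replicate block, thinning and each library left out. The transcript fit and the removal of a length trend (lowess of each library's deviation on log2 length) were added after seeing the data. Intervals cover 2 libraries a genotype. Promoters are from RefSeq on GRCm38.p6. Figures were drawn with matplotlib 3.10.9.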

Additional observations from a re-analysis of the deposited data

How the results depend on the processing

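Over all genes tested, 1 gene was called, and 0 were called with a pseudocount of 0.1 CPM, with no mean-variance trend, after thinning to the shallowest library or with each transcript fitted on its own (limma, BH). Leaving out a library gave 0 to 954 called genes, 0 to 2 of the 38 and 0 to 4 of the other acrosome genes, with the median log2 fold change of the 38 from -0.099 to 0.024. None of the 38 was called under any other alternative. Deviations of same-numbered libraries correlated at -0.0059 across genes. A single such correlation cannot tell whether the replicate numbers pair the libraries. The replicate block gave 24 called genes, 0 of them among the 38. Of 294 values for 21 named genes, 270 had the same sign and the same call, 3 came past it (Crisp2, Adam1a and Prss37, each without KO replicate 1) and 21 changed sign. After thinning, Gopc had 0.045, Pick1 0.15 and Calr3 -0.018. With the length trend removed Pick1 had 0.017 and Lypd4 0.0094, and after quantile normalization Lypd4 had 0.016. With a library left out the log2 fold change ran from -0.076 to 0.31 for Crisp2, -0.13 to 0.13 for Atp8b3, -0.61 to 0.091 for Gopc, -0.37 to 0.28 for Agfg1, -0.16 to 0.14 for Pick1, -0.042 to 0.18 for Clgn, -0.016 to 0.16 for Calr3, -0.12 to 0.023 for Pdilt and -0.080 to 0.066 for Lypd4. The cause of these changes was not tested. Adjusted p-values of the named genes ranged from 0.00477 to 1 over the alternatives. Depth in KO limits what could be seen in Gopc, Cd46, Tmem95 and Spaca6, which had 8 to 26 estimated reads there.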
